A study of Mus musculus with 8 samples.

Results

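The Nduf genes encode most nuclear subunits of respiratory complex I and several of its assembly factors, and they were described in mouse liver RNA-seq of Inpp4b-/- and WT mice on a HFD (high-fat diet). The members were all protein-coding genes of the deposited count table whose GRCm38 symbol begins with Nduf. All 46 such genes of the annotation were among the 18095 genes of the table, and 5 further annotated Nduf genes that are not protein-coding were left out. All 46 had enough counts to be tested, with 26 counts in the lowest library for Ndufa4l2 and 10914 in the highest for Ndufa4.

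Liver RNA was sequenced from 4 HFD WT and 4 HFD Inpp4b-/- males aged 12 weeks. Both genotypes came from dams kept on the HFD from before mating to the end of lactation, and the pups stayed on it. The knockout is germline, so every cell type of the liver carries it, and the low-fat groups of the study were not sequenced. The labels name C57BL/6 as the strain background whereas the paper names FVB, and the labels name a ribosomal RNA removal step that the paper does not. Inpp4b, the lipid phosphatase gene targeted in the knockout, had 6, 20, 5 and 8 counts in HFD WT replicates 1 to 4 and 33, 10, 9 and 14 counts in HFD Inpp4b-/- replicates 1 to 4. The HFD Inpp4b-/- label thus did not go with fewer Inpp4b counts (two-sided exact permutation test on log2 CPM, n = 4 per group, p = 0.486). Counts summed over a gene cannot tell reads of a deleted part from reads of the exons that remain, so these few counts neither settle nor dispute the labels, on which each direction given here rests. Library totals ranged from 25893430 to 31427831 counts in the libraries labelled HFD WT and from 32738435 to 36662531 in those labelled HFD Inpp4b-/-. The 8 hepatocyte markers examined were all present, with a summed level of 80679.6 to 102333 CPM (counts scaled to 1e+06 per TMM-normalised library) per library. Each library is described as coming from a separate mouse, so the spread within a label is that between mice.

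Complex I is the entry point of electrons from NADH into the respiratory chain of the inner mitochondrial membrane, where it passes them to ubiquinone and pumps protons. It is L-shaped: a matrix arm holds the NADH site, the iron-sulfur clusters and the quinone site, and a membrane arm pumps protons through subunits encoded by mitochondrial DNA. Accessory subunits surround this core, and assembly factors join separately built modules without remaining in the finished enzyme. In liver, the complex reoxidises the NADH produced by fatty acid oxidation.

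Most Nduf genes had a small positive difference in the libraries labelled HFD Inpp4b-/- that did not pass the test, and 2 of the 46 members were called, in opposite directions. Ndufs5 was lower by 2.84-fold, and Ndufa13 was higher by 1.41-fold. Neither call held in every alternative fit. With the counts of near-identical copies added, Ndufs5 turned to a log2 fold change of 0.25 and was not called. Ndufa13 was not called in some of the fits that left out a library. A gene was called at an adjusted p under 0.10 (edgeR quasi-likelihood test over all genes, Benjamini-Hochberg) with a fold change over 1.3. Of the 14866 genes tested, 174 were called (1.17%), 82 of them higher (0.552%) and 92 lower (0.619%). The log2 fold change was positive in 43 of the 46 members, with a median of 0.13, whereas 50.4% of all tested genes were positive, with a median of 0.00. At an unadjusted p under 0.05, 11 members were higher, beside 6.8% of all tested genes, and 1 was lower, beside 7.14%. In 9 members every library labelled HFD Inpp4b-/- was above every library labelled HFD WT (4.63% of all tested genes), and in 1 member the reverse held (4.09%). Members share libraries and are not replicates of each other. Leaving out HFD Inpp4b-/- replicate 3 reduced the members higher at an unadjusted p under 0.05 from 11 to 5, leaving out HFD Inpp4b-/- replicate 4 or HFD WT replicate 1 reduced them to 7, and leaving out HFD WT replicate 2 reduced them to 6. They increased to 16 without HFD Inpp4b-/- replicate 1 and to 15 with upper quartile normalization.

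**Figure D1:**
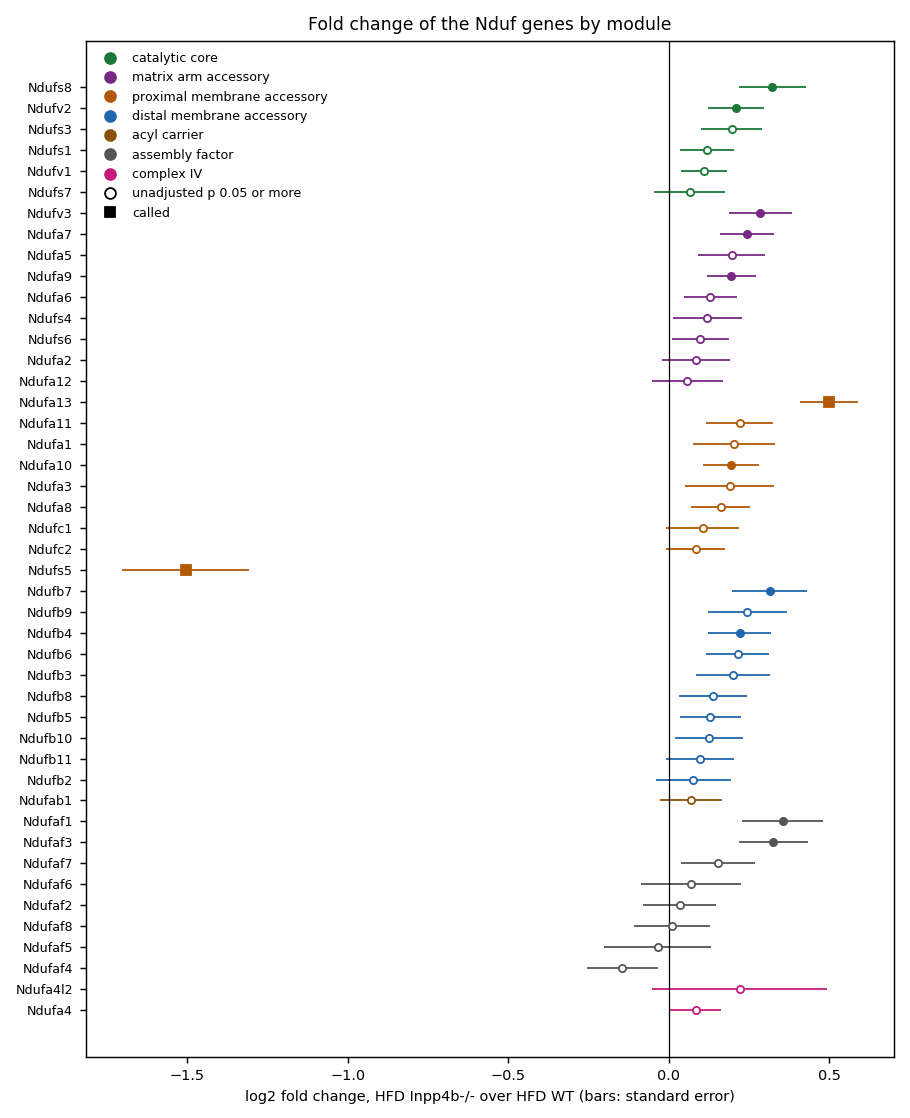
Log2 fold change of the Nduf genes (x axis, libraries labelled HFD Inpp4b-/- over HFD WT, 4 against 4), with its standard error as a bar, ordered by module; filled symbols have an unadjusted p under 0.05 and squares are called; 45 of the 46 genes are drawn. All but 3 of those drawn lie to the right of 0, Ndufs5 stands alone at -1.51, and Ndufa13 is the farthest to the right at 0.50.

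Ndufs5 (ENSMUSG00000028648; GRCm38 chr4:123712710-123718202, minus strand) encodes an accessory subunit that lies on the intermembrane space side of the proximal membrane arm. Its level was 48.5, 78.2, 50.6 and 76.3 CPM in HFD WT replicates 1 to 4. In HFD Inpp4b-/- replicates 1 to 4 it was 21.9, 18.6, 28.8 and 20.1 CPM. All 4 libraries labelled HFD Inpp4b-/- were thus below all 4 labelled HFD WT, and HFD WT replicates 1 and 3 lay well below HFD WT replicates 2 and 4. The means were 22.3 ± 4.51 CPM (SD, n = 4) and 63.4 ± 16.1 CPM (SD, n = 4), the log2 fold change was -1.51 with a standard error of 0.20, and the adjusted p of edgeR's quasi-likelihood test was 0.0117.

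The genome holds a near-identical copy of the Ndufs5 coding sequence in BC002163 (ENSMUSG00000081824), a processed pseudogene at chr16:42955631-42955949. The copy aligned to 319 of the 321 coding bases of Ndufs5 without a gap and differed at 2 of them, T81C and A105G, where the first letter is the base of Ndufs5, the last that of the copy, and positions are counted from 1 at the first coding base. The stretch from coding base 61 to 125 holds both differences, in capitals, and is shown because all other aligned bases of the pair are the same, so that reads within the aligned part which miss these positions match both genes. The sequences are from the GENCODE M21 transcripts of GRCm38.
Ndufs5: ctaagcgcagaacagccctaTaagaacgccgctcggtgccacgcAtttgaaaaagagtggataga
BC002163: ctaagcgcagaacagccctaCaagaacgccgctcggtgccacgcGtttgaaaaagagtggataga

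Between sets of libraries, though not always within them, the counts of the copy moved opposite to those of Ndufs5. BC002163 had 30.2, 1.04, 35.9 and 0.768 CPM in HFD WT replicates 1 to 4 and 64.9, 72.4, 76.4 and 80.0 CPM in HFD Inpp4b-/- replicates 1 to 4. HFD WT replicates 2 and 4, where the copy was close to 0, had the highest Ndufs5 levels, HFD WT replicates 1 and 3 were intermediate for both, and the 4 libraries labelled HFD Inpp4b-/- had the highest copy and the lowest Ndufs5 levels. The copy took 72.6% to 79.9% of the summed counts in the libraries labelled HFD Inpp4b-/- and 0.996% to 41.5% in those labelled HFD WT. The copy itself was not called, with a log2 fold change of 2.11, a standard error of 0.94 and an adjusted p of 0.357 (edgeR).

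The sum of both genes was far more even. It was 78.7, 79.2, 86.5 and 77.1 CPM in HFD WT replicates 1 to 4 and 86.8, 90.9, 105 and 100.1 CPM in HFD Inpp4b-/- replicates 1 to 4. The sum averaged 95.8 ± 8.41 CPM (SD, n = 4) under the HFD Inpp4b-/- label, compared with 80.4 ± 4.18 CPM (SD, n = 4) under HFD WT. When the counts of the near-identical copies were added to their parent genes, an alternative chosen after seeing the data, the log2 fold change of Ndufs5 turned to 0.25 with a standard error of 0.09 and was no longer called (edgeR, adjusted p = 0.246). Which of the pair the shared reads came from was not tested. The lower Ndufs5 level is therefore a statement on reads assigned to this gene, not on the sum of the pair.

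**Figure D2:**
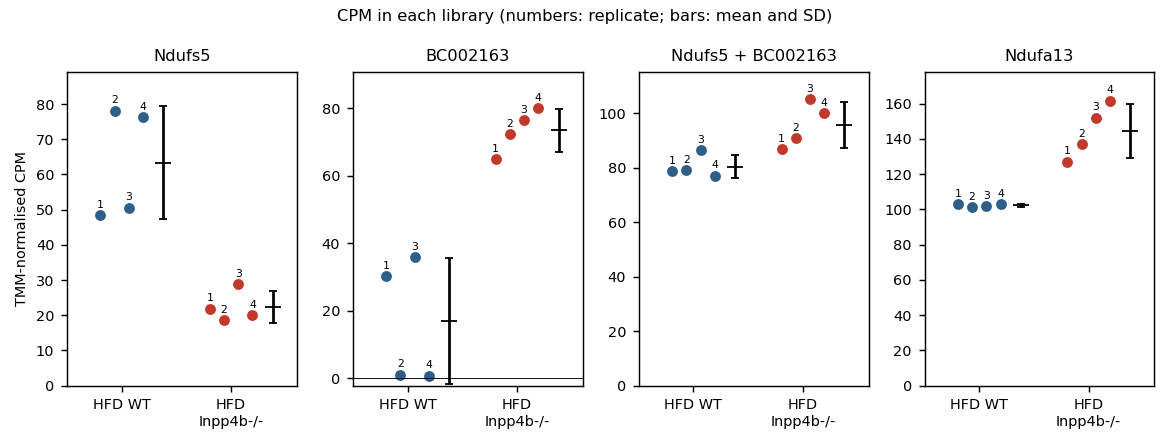
TMM-normalised CPM (y axis) of Ndufs5, its copy BC002163, the sum of both, and Ndufa13 in each library; points are libraries numbered by replicate, and the black bars give the mean and SD of 4 libraries. Ndufs5 and BC002163 run opposite to each other across the 8 libraries, their sum stays between 77.1 and 105 CPM, and the 4 HFD WT libraries of Ndufa13 fall within 101 to 103 CPM.

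Ndufa13 (ENSMUSG00000036199; GRCm38 chr8:69894180-69902558, minus strand), also known as Grim19, encodes a subunit at the junction of the matrix and membrane arms. Its level was 103, 101, 102 and 103 CPM in HFD WT replicates 1 to 4 and 127, 137, 152 and 162 CPM in HFD Inpp4b-/- replicates 1 to 4. The groups did not overlap, and the libraries labelled HFD WT were almost equal while those labelled HFD Inpp4b-/- spread over a wider range. The means were 144 ± 15.5 CPM (SD, n = 4) and 102 ± 0.744 CPM (SD, n = 4), the log2 fold change was 0.50 with a standard error of 0.09, and the adjusted p was 0.0503 (edgeR). The call was lost without HFD Inpp4b-/- replicate 2, 3 or 4 and without HFD WT replicate 1 or 3, with adjusted p-values of 0.101 to 0.150 (edgeR). Exons of Tssk6 on the opposite strand cover 30% of the exon bases of Ndufa13, and the strand setting of the counting is not given in the sources used here.

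Ndufa13 and Ndufb7 are the members on chromosome 8, the chromosome of Inpp4b, at distances of 11.4 Mb and 1.44 Mb from it. Of the 308 tested genes within 20 Mb of Inpp4b, 23 were called (7.47%), beside 1.17% of all tested genes. Within 1 Mb of Ndufa13, 62 other genes were tested, and 5 were called higher and 2 lower (11.3%). Ndufb7, a subunit of the distal membrane arm, had 75.7, 66.1, 77.1 and 80.1 CPM in HFD WT replicates 1 to 4 and 80.1, 82.4, 109.5 and 99.8 CPM in HFD Inpp4b-/- replicates 1 to 4. HFD WT replicate 4 and HFD Inpp4b-/- replicate 1 were level, so the groups overlapped, and Ndufb7 was not called at a log2 fold change of 0.31 with a standard error of 0.12 (edgeR, adjusted p = 0.278). Of the 31 other tested genes within 1 Mb of Ndufb7, 3 were called higher. Around Ndufs5, on chromosome 4, 16 other genes were tested within 1 Mb, and 1 was called, Pabpc4, which was lower. The deletion of Inpp4b and the chromosome segment around it cannot be told apart in these groups.

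**Figure D3:**
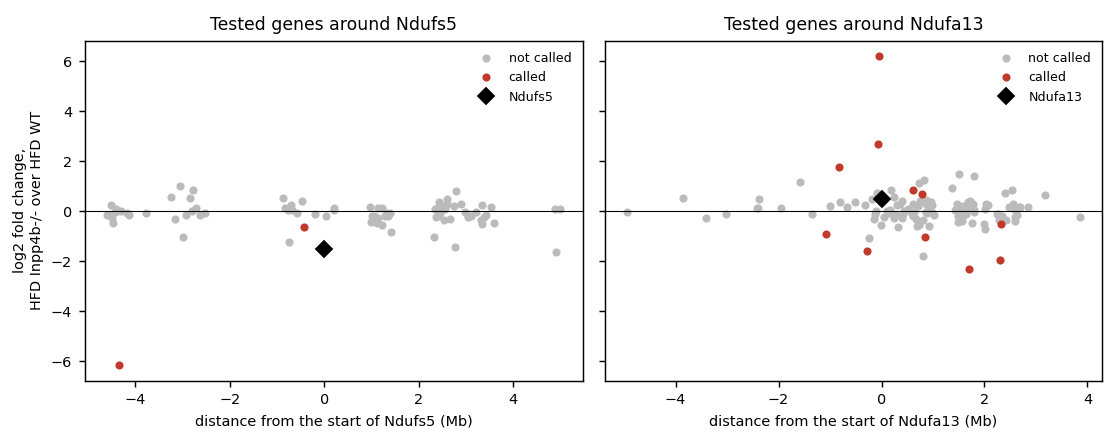
Log2 fold change (y axis) of the tested genes within 5 Mb of Ndufs5 (left) and Ndufa13 (right), against the distance in Mb (x axis). Distances are between gene midpoints, although the axis label names the start. Red points are called genes and the black diamond is the Nduf gene. Called genes of both directions surround Ndufa13, whereas near Ndufs5 the other called genes are a neighbour within 1 Mb and a gene more than 4 Mb away.

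The 7 core subunits encoded in the nucleus carry the flavin and the iron-sulfur clusters. All 7 had a positive log2 fold change (0.06 to 0.32, median 0.12), 2 had an unadjusted p under 0.05, and none were called. Ndufs8, which holds a pair of iron-sulfur clusters close to the quinone site, had 81.4, 71.6, 80.7 and 77.3 CPM in HFD WT replicates 1 to 4. It had 86.5, 86.0, 110 and 106 CPM in HFD Inpp4b-/- replicates 1 to 4. The groups did not overlap, but the 2 lower libraries labelled HFD Inpp4b-/- were close to the HFD WT range, and the log2 fold change of 0.32 with a standard error of 0.10 was not called (edgeR, adjusted p = 0.219).

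Ndufv2, an iron-sulfur subunit at the tip of the matrix arm, ranged from 101 to 109 CPM in the libraries labelled HFD WT and from 109 to 135 CPM in those labelled HFD Inpp4b-/-, without overlap and with a log2 fold change of 0.21 (edgeR, adjusted p = 0.330). Ndufv1, which binds NADH and the flavin, also did not overlap between the groups, at 151 to 167 CPM against 167 to 179 CPM, although its log2 fold change was 0.11 (edgeR, adjusted p = 0.542). Ndufs1, the largest core subunit, had a log2 fold change of 0.12, and Ndufs3, a subunit of the quinone module, of 0.20. Ndufs7, an iron-sulfur subunit beside the quinone site, had the smallest difference of the core, with a log2 fold change of 0.06.

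Accessory subunits of the matrix arm included 9 genes, all with a positive log2 fold change (median 0.13) and none called. Ndufv3, at the NADH-binding tip, had the highest of them at 0.28 with a standard error of 0.10 (edgeR, adjusted p = 0.245). Its level was 73.7, 69.1, 81.4 and 88.3 CPM in HFD WT replicates 1 to 4 and 89.8, 89.0, 100.4 and 101.6 CPM in HFD Inpp4b-/- replicates 1 to 4. The groups were separated by a narrow gap between HFD WT replicate 4 and HFD Inpp4b-/- replicate 2. Ndufa7 (log2 fold change 0.24) and Ndufa9, a nucleotide-binding subunit beside the quinone site (0.19), also did not overlap, with adjusted p-values of 0.248 and 0.299 (edgeR). Ndufa6, which anchors the acyl carrier protein to the matrix arm, had the highest level per length of the matrix arm accessory subunits and a log2 fold change of 0.13. Ndufs4, a subunit needed for a stable NADH-binding module, had a log2 fold change of 0.12.

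Ndufa12 was lowest in fold change among the matrix arm accessory subunits, at 0.06, and it too has a near-identical processed pseudogene, Gm15920, with 99.5% identity over 402 bases. The copy took 14.0% to 31.5% of the summed counts in the libraries labelled HFD WT and 28.5% to 39.1% in those labelled HFD Inpp4b-/-. With the copy added, the log2 fold change of Ndufa12 was 0.22 (edgeR, adjusted p = 0.533). For Ndufab1, Ndufs3, Ndufb4, Ndufs6 and Ndufb11, the other members with a counted copy of this kind, addition of the copies gave log2 fold changes of 0.09 to 0.22, and none of these members were called.

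Of the 9 accessory subunits of the proximal membrane arm, 8 had a positive log2 fold change (median of the 9 genes 0.19), and this group held both called members. Ndufa10, which resembles a nucleoside kinase, had 152, 156, 154 and 154 CPM in HFD WT replicates 1 to 4 and 161, 162, 190 and 193 CPM in HFD Inpp4b-/- replicates 1 to 4. Its groups did not overlap, HFD Inpp4b-/- replicates 3 and 4 were the highest, and the log2 fold change was 0.19 with a standard error of 0.09 (edgeR, adjusted p = 0.358). Ndufa1, a small subunit needed early in membrane arm assembly, had a log2 fold change of 0.20, and Ndufc1 one of 0.10.

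All 10 accessory subunits of the distal membrane arm had a positive log2 fold change (0.08 to 0.31, median 0.17), and none were called. Ndufb7 was at the top, and Ndufb4 was the other gene with an unadjusted p under 0.05, at a log2 fold change of 0.22 (edgeR, adjusted p = 0.355). Ndufb10, an intermembrane space subunit with twin cysteine motifs, was the most abundant per length and had a log2 fold change of 0.12. Ndufb2 was the lowest in both fold change (0.08) and level, with 8.49 to 9.95 CPM in the libraries labelled HFD WT. Its principal transcript here has 4371 bases, and 145 of its exon bases are shared with another annotated gene on the same strand, Gm42420. Ndufab1, the mitochondrial acyl carrier protein found in both arms, had a log2 fold change of 0.07.

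The 8 assembly factors were less uniform, with 6 positive and 2 negative log2 fold changes (median 0.05) and none called. Ndufaf1, which helps to build the membrane arm, had 19.0, 21.9, 23.1 and 27.0 CPM in HFD WT replicates 1 to 4 and 25.9, 30.0, 33.5 and 26.9 CPM in HFD Inpp4b-/- replicates 1 to 4. HFD WT replicate 4 reached into the range of the libraries labelled HFD Inpp4b-/-, and the log2 fold change was 0.35 with a standard error of 0.13 (edgeR, adjusted p = 0.260). Ndufaf3 and Ndufaf4 are partners in the assembly of the quinone module, and their values differed in sign. Ndufaf3 ranged from 9.60 to 11.4 CPM in the libraries labelled HFD WT and from 12.1 to 13.3 CPM in those labelled HFD Inpp4b-/-, with no overlap and a log2 fold change of 0.32 (edgeR, adjusted p = 0.227). Ndufaf4 had 49.7 to 52.3 CPM in the libraries labelled HFD WT, whereas HFD Inpp4b-/- replicates 1 and 2 had 40.9 and 38.9 CPM and replicates 3 and 4 had 52.5 and 51.9 CPM, so that its log2 fold change of -0.15 rested on replicates 1 and 2 (edgeR, adjusted p = 0.601).

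Ndufaf7, an arginine methyltransferase needed for assembly of the complex, had a log2 fold change of 0.15. Ndufaf6, with a fold related to squalene synthases, was at 0.07, and Ndufaf2, a late assembly factor and a relative of Ndufa12, was at 0.03. Ndufaf8 and its partner Ndufaf5, an arginine hydroxylase that acts on Ndufs7, were at 0.01 and -0.03. The sign of the last 4 changed in at least 1 of the fits that left out a library. The last 2 Nduf-named genes are assigned to complex IV. Ndufa4, a subunit of that complex, had a log2 fold change of 0.08, and Ndufa4l2, its relative known as a target of hypoxia-inducible factor, one of 0.22 with a standard error of 0.27 at levels of 0.959 to 1.87 CPM.

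Levels per length (CPM per kb of the principal transcript, mean of all 8 libraries) spanned more than 2 orders of magnitude. Ndufa4 was the most abundant at 472 CPM per kb, followed by Ndufa6 at 280.1 and Ndufb10 at 187. Among the core subunits, Ndufs1 was lowest at 42.6 CPM per kb, and Ndufs3 had 117 CPM per kb. The 8 assembly factors lay between 3.45 for Ndufaf5 and 23.6 CPM per kb for Ndufaf8, below every structural subunit of complex I except Ndufab1 at 15.9 and Ndufb2 at 2.16 CPM per kb. This order depends on the transcript length used. Without division by length, Ndufaf4 averaged 50.9 CPM under HFD WT, above Ndufc1 at 43.0 CPM. Ndufa4l2 was the lowest member at 1.62 CPM per kb. Ndufs5 would rank among the middle members from its libraries labelled HFD WT, at 93.2 ± 23.6 CPM per kb (SD, n = 4), and among the lowest subunits from those labelled HFD Inpp4b-/-, at 32.9 ± 6.64 CPM per kb (SD, n = 4).

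**Figure D4:**
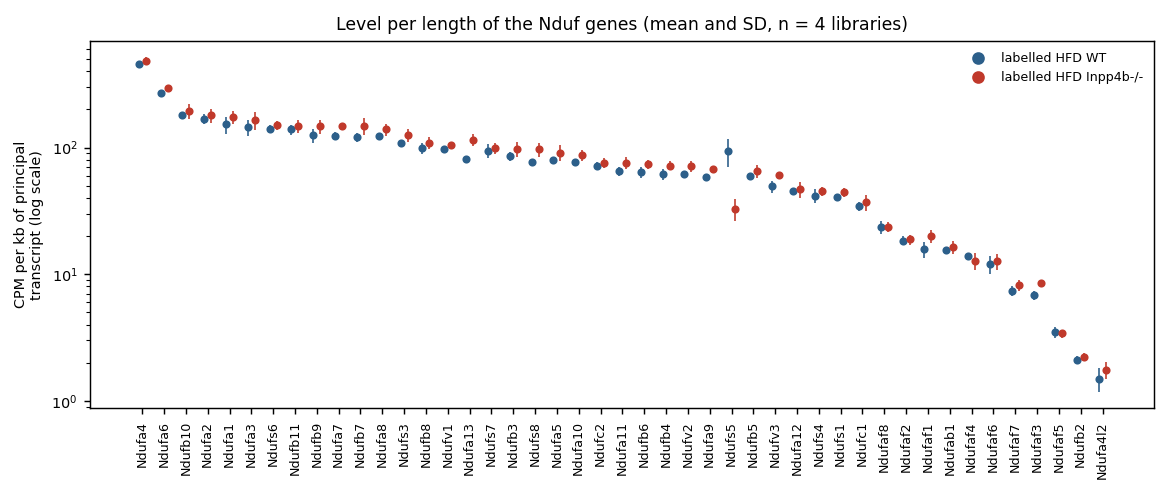
Level per length of 45 of the 46 Nduf genes (y axis, CPM per kb of the principal transcript, log scale), ordered by the mean of all 8 libraries; points and bars are the mean and SD of the 4 libraries of each label. Assembly factors fill the low end below 24 CPM per kb, and Ndufs5 is the gene whose label groups are farthest apart.

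The positive differences of the members were carried mainly by HFD Inpp4b-/- replicates 3 and 4. For each library, the difference of every gene from its HFD WT mean was taken on the log2 scale, and the median over the 46 members was 0.01, 0.05, 0.30 and 0.23 in HFD Inpp4b-/- replicates 1 to 4. The same median was 0.03, -0.05, 0.00 and 0.03 in HFD WT replicates 1 to 4. HFD Inpp4b-/- replicate 1 thus lay inside the HFD WT range and replicate 2 just above it, and 45 and 43 of the 46 members were above their HFD WT mean in replicates 3 and 4, compared with 24 and 37 in replicates 1 and 2. Without HFD Inpp4b-/- replicate 3 the members had 39 positive log2 fold changes and a median of 0.10, and without replicate 1 they had 43 and a median of 0.19.

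The same libraries stood out for other gene lists, though less evenly for the complex I subunits of mitochondrial DNA. The median over 38 nuclear subunits of complexes II to V was 0.03, 0.08, 0.28 and 0.20 in HFD Inpp4b-/- replicates 1 to 4, close to the values of the Nduf genes. For 702 other protein-coding genes with a principal transcript under 1 kb, it was -0.01, 0.03, 0.15 and 0.13 in these replicates and -0.08 to 0.08 in the libraries labelled HFD WT. For the 7 complex I subunits of mitochondrial DNA, it was 0.16, 0.10, 0.23 and 0.49 in HFD Inpp4b-/- replicates 1 to 4. In the libraries labelled HFD WT it was -0.14 to 0.11 for these 7 genes, a range that holds HFD Inpp4b-/- replicate 2. These 7 genes include mt-Nd3 and mt-Nd4l, which had low levels. Of the members, 24 have a principal transcript under 1 kb and 17 one of 1 to 2 kb. Over all protein-coding genes tested, the median log2 fold change was 0.08 under 1 kb, 0.05 from 1 to 2 kb, -0.01 from 2 to 4 kb and -0.04 over 4 kb. The part of transcript length in the small positive values of the members was not tested.

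**Figure D5:**
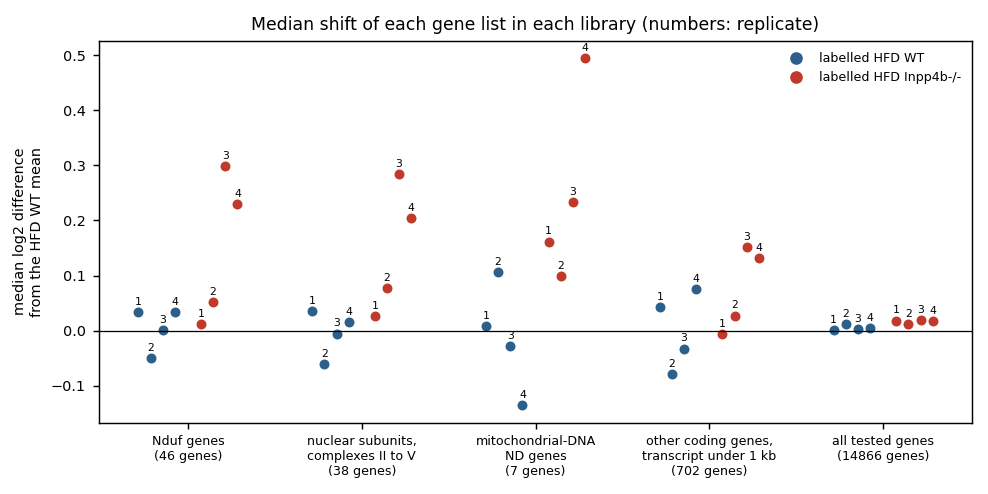
Median log2 difference from the HFD WT mean (y axis) of each gene list in each library; blue and red points are libraries labelled HFD WT and HFD Inpp4b-/-, numbered by replicate. For the Nduf genes, HFD Inpp4b-/- replicates 3 and 4 lie at 0.30 and 0.23, and the other 6 libraries lie between -0.05 and 0.05; the median of all tested genes stays near 0 in every library.

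The rest of complex I and of the respiratory chain gave similar small values. All 7 complex I subunits of mitochondrial DNA had a positive log2 fold change (median 0.20), from 0.02 for mt-Nd3 to 0.58 for mt-Nd6, 3 had an unadjusted p under 0.05 and none were called. Of these genes, mt-Nd3 and mt-Nd4l were low, with HFD WT means of 4.90 and 7.35 CPM, whereas the lowest HFD WT mean of the others was 944 CPM. The median is the value of mt-Nd4l, which had a standard error of 0.34. Of the 12 complex I assembly factors with other names that were tested, 11 were positive (median 0.05), from -0.13 for Foxred1 to 0.50 for Acad9, and none were called. Positive values were found for 2 of 4 genes of complex II, 9 of 9 of complex III (median 0.12), 10 of 10 of complex IV (median 0.23) and 14 of 15 of complex V (median 0.12), with none called. Unadjusted p-values under 0.05 were most frequent in complex IV, with 7 of 10 genes. The 13 transcription factors and coactivators of nuclear or mitochondrial respiratory genes did not share a direction: 6 were positive and 7 negative (median -0.04). They ranged from -0.60 for Pprc1 to 0.53 for Esrrg, 1 was higher at an unadjusted p under 0.05, and none were called.

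Markers of other cell types were examined beside these values, since in bulk liver fewer cells of a type and less RNA per cell cannot be told apart. All 7 Kupffer cell and leukocyte markers tested had a positive log2 fold change, none were called, and their summed level was 36.3 to 99.1 CPM in the libraries labelled HFD WT and 80.2 to 120 CPM in those labelled HFD Inpp4b-/-. Of the 4 stellate cell markers, 3 were higher at an unadjusted p under 0.05 and none were called, with sums of 39.2 to 56.8 and 45.0 to 81.6 CPM. Lrat was higher without overlap (log2 fold change 0.73), and the remaining marker, Des, was lower (-0.30). Of the 8 hepatocyte markers, 3 had a positive and 5 a negative log2 fold change (median -0.03), and none were called. Alb and Ttr were higher without overlap (log2 fold changes of 0.24 and 0.31), and Tat was lower without overlap (-1.08). The edgeR adjusted p-values of Alb, Ttr and Tat were 0.474, 0.266 and 0.254. Endothelial and cholangiocyte markers had no call. Of the 4 cholangiocyte markers, 3 had a positive log2 fold change (median of the 4 markers 0.44), and Sox9 was lower at an unadjusted p under 0.05 (-0.71). Of the 5 erythroid markers, 3 were positive (median of the 5 markers 0.10), and Hba-a2 was called lower (edgeR, adjusted p = 0.0570). Hba-a2, which has near-identical relatives, had mean levels of only 0.414 CPM under the HFD Inpp4b-/- label and 3.15 CPM under HFD WT. None of the adipocyte or muscle markers listed were in the count table. The part of cell composition in the values of the members was not tested.

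Promoters of the members were searched for motifs of factors known to control nuclear respiratory genes, on both strands, in windows of 250 bases before to 50 bases after the start (RefSeq, GRCm38.p6). Windows were found for 40 of the 46 members and 27025 genes in all. The NRF1 motif CGCATGCG was in the windows of 4 members (10%, beside 2.1% of all genes) and the YY1 motif AAGATGGCG in those of 6 (15.0%, beside 1.6%). The ETS motif CCGGAAG of GABP was in 6 (15.0%, beside 9.9%), the ERR motif AAGGTCA in 3 (7.5%, beside 5.4%) and the SP1 motif GGGCGG in 21 (52.5%, beside 38.2%). None of these motifs contains another, and a match is a description of letters, not of binding. The members with the NRF1 motif were Ndufa8, Ndufa11, Ndufaf4 and Ndufaf5, with log2 fold changes of 0.16, 0.22, -0.15 and -0.03, none of them called. The members with the YY1 motif were Ndufa9, Ndufaf8, Ndufc1, Ndufs4, Ndufs6 and Ndufs7, with log2 fold changes of 0.01 to 0.19, none of them called.

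The 120 bases before the start of Ndufa11, a membrane arm subunit, and of Ndufaf4 are shown because both hold the NRF1 motif, and their log2 fold changes have opposite signs. They lie at chr17:56717642-56717761 and chr4:24897963-24898082 of GRCm38.p6, both on the plus strand, with the NRF1 motif and, in Ndufaf4, overlapping SP1 motifs in capitals.
Ndufa11: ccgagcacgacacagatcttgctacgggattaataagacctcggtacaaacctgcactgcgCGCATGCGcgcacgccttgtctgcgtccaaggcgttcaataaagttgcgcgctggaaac
Ndufaf4: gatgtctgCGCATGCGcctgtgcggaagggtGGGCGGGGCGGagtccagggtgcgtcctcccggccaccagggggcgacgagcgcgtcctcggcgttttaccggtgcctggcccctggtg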

How the data were processed

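The deposited values were raw counts per gene, which the authors obtained with HTSeq after HISAT2 alignment of their paired-end reads (150 bp) against GRCm38. Versions, annotation release and strand setting are not given in the sources used here. A deposited normalized version of the same table was not used. Symbols, coordinates and principal transcripts (the longest where there were several) were taken from GENCODE M21, in which all 18095 identifiers were found.

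The counts of 4 libraries labelled HFD Inpp4b-/- and 4 labelled HFD WT were compared in R 4.3.3 by edgeR 4.0.16, using filterByExpr, TMM factors, estimateDisp and the quasi-likelihood functions without a covariate. The biological coefficient of variation was 0.251. The standard error is the one implied by the quasi-likelihood F statistic. Thresholds followed the study (adjusted p under 0.10, fold change over 1.3). The study applied them with DESeq2 to HISAT2 and to STAR counts and kept genes that passed in both, whereas only the HISAT2 counts were used here. For Inpp4b, below the filter, 0.1 CPM was added before log2, and the 70 arrangements of 4 against 4 were enumerated. The procedure was tested on simulated data. Near-identical copies were found with BLAST 2.17.0 (at least 95% identity over at least 150 bases).

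All 46 members entered every fit and count, and the values of 1 of them are not reported here, so that figures of single genes draw 45. The members and gene lists were chosen with earlier results of these data known. Named were members called, with an unadjusted p under 0.05 or without overlap, core subunits (except that member), assembly factors, complex IV subunits, members on the chromosome of Inpp4b, and the ends of each other list in fold change and level per length. The other genes named (BC002163, Gm15920 and other copies, Tssk6, Pabpc4, Gm42420, Ndufs6, Ndufa8, Ndufa11, Ndufb11, mt-Nd4l, Alb, Ttr, Tat, Lrat, Des, Sox9 and Hba-a2) were chosen after their values were seen. Alternatives were DESeq2 1.42.0, other normalizations, filters and thresholds, a replicate block, leaving out each library and, chosen after seeing the data, adding the counts of copies.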

Additional observations from a re-analysis of the deposited data

Results flagged for a closer look

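In 3 of the 92 groups of 4 libraries (46 genes, 2 labels), the highest or lowest library stood apart by Dixon's criterion at its 95% level. Chance flags about 1 group in 20, that is 4.6 of 92. Ndufs3 was 120.626 CPM in HFD WT replicate 1, and the nearest of the other libraries labelled HFD WT had 112.721 CPM. Ndufv1 was 151.208 CPM in HFD WT replicate 2, with the nearest at 164.323 CPM. Ndufa4l2 was 0.958811 CPM in HFD WT replicate 1, with the nearest at 1.51176 CPM. None of these genes were called.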

How the results depend on the processing

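Ndufs5 and Ndufa13 were the called members with DESeq2, with other normalizations (median of ratios, upper quartile, totals only), with other filters and without a fold threshold. The number of called members was 1 (Ndufs5) at an adjusted p under 0.05, 1 (Ndufa13) with copies added, and 1 to 2 without single libraries. All genes called were 174 in the fit reported, 71 at an adjusted p under 0.05, 688 with DESeq2 and 53 (without HFD Inpp4b-/- replicate 2) to 345 (without HFD WT replicate 2) when single libraries were left out. Between 39 and 44 members were positive, with a median log2 fold change of 0.10 to 0.19. Ndufs5 stayed called without each library (log2 fold change -1.65 to -1.40, edgeR adjusted p 0.0169 to 0.0614), and turned to 0.25 with copies added. Without single libraries, log2 fold changes near 0 turned sign: Ndufa12 ranged from -0.017 to 0.14, Ndufab1 from -0.00033 to 0.14, Ndufaf2 from -0.014 to 0.089, Ndufaf5 from -0.11 to 0.00095, Ndufaf6 from -0.045 to 0.13, Ndufaf8 from -0.067 to 0.068, Ndufc1 from -0.0027 to 0.16 and Ndufs7 from -0.0018 to 0.15. The cause was not tested.

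With a replicate block, 26 genes and 0 members were called, the median log2 fold change of the members was 0.13 with 43 positive, and adjusted p-values rose to 0.140 for Ndufs5 (log2 fold change -1.49) and 0.219 for Ndufa13 (0.49), with 6 members higher and 1 lower at an unadjusted p under 0.05. The numbers are not a pairing given by the labels: deviations of same-numbered libraries correlated at -0.18 to -0.016 over 4 pairs, and those of other pairs at -0.033 to 0.15 over 12.

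Counts limit the precision of low members such as Ndufa4l2 (26 to 65 counts per library). Genes with overlapping exons or near-identical copies have uncertain counts.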
